A study of Arabidopsis thaliana with 8 samples.

Results

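The flavonol branch was followed at 10 Arabidopsis thaliana loci, listed by name, with earlier results of these data known. They are the regulators MYB11, MYB12 and MYB111, the flavonol synthase FLS1, the methyltransferase OMT1, the glycosyltransferases UGT78D1, UGT78D3, UGT89C1 and UGT73C6, and the UDP-rhamnose synthase RHM1. All 10 loci have a probe, with 16 probes in all, among 25433 genes that could be named on the array. Total RNA of whole seedlings, 6 days old and grown on sucrose medium, was hybridised to 8 one-colour Agilent arrays. Of these, 4 arrays carried tt8-3, a line without TT8 function in the Ws background, and 4 carried Ws itself, called wild type below. The labels name no agent, and the lines share the Ws background, the medium and the age.

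Each of 2 slides held 2 arrays of each line. Replicates 1 and 2 lay on slide 1 and replicates 3 and 4 on slide 2, and the odd-numbered array of each pair is called the first array of its line on that slide. The series describes 2 independent biological replicates per line with technical repeats, and it can be read to place the repeats either within a slide or across slides. Main values average the arrays of a line within a slide, and the other averaging, by array order, is given beside them. What separated the biological replicates is not given in the sources used here. Main p-values measure the spread between the slide averages of a line, and p-values by array order measure that between its averages by order. Either spread may be partly technical, and the difference between arrays that are averaged together does not enter. Wild type filled the first array positions of both slides and tt8-3 the later ones, so position and genotype cannot be told apart. tt8-3 is a single mutant line, and whole seedlings mix many cell types, so fewer cells of a type and less RNA per cell cannot be told apart.

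Flavonols such as kaempferol and quercetin are made when flavonol synthase oxidises a dihydroflavonol, at the point where the pathway to anthocyanins and proanthocyanidins turns away. The R2R3 factors MYB11, MYB12 and MYB111 activate FLS1 and the early flavonoid genes and are known to do so without a basic helix-loop-helix partner. TT8 is such a partner, and works with MYB and WD40 proteins on the later anthocyanin and proanthocyanidin genes. In the cell most flavonols carry sugars, often rhamnose, which UGT enzymes transfer from UDP-sugars.

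Levels below are on the log2 scale, with the processed signal of a probe divided by the 75th percentile of its array, so a level of 0 is the signal at that percentile. A level belongs to its probe, and levels of different genes are not compared. TT8 (AT4G09820), read by a single probe whose place relative to the lesion is not known here, was measured first. It was at 4.27, 4.40, 4.19 and 4.29 on wild-type replicates 1 to 4 and at -6.03, -5.56, -6.94 and -7.07 on tt8-3 replicates 1 to 4. No tt8-3 array detected it above background, so the fall is given as a bound of at least 1520-fold (limma adjusted p = 0.00179). For this bound, and for those below, the mean of the bright line was set against a floor on each array, the dimmest signal still flagged well above background there, or against the probe's own value where that was higher. Such bounds hold for the main values, since the TT8 change of -10.69 was -6.94 with normexp background correction.

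Testing required a brightest probe well above background on all 4 arrays of either line, which held for 6 of the 10 loci and for 19226 genes in all. MYB11, MYB12, UGT78D3 and UGT73C6 did not reach it. By slide averages, UGT78D1 and MYB111 were higher in tt8-3 and OMT1 was lower at an adjusted p under 0.05. FLS1, UGT89C1 and RHM1 had log2 changes of -0.40, -0.34 and -0.45 that did not pass. Among all genes tested 15.7% passed as higher and 11% as lower. MYB111 entered the test only through the line in which it is high, and the counts over the loci describe them and support nothing further.

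**Figure D1:**
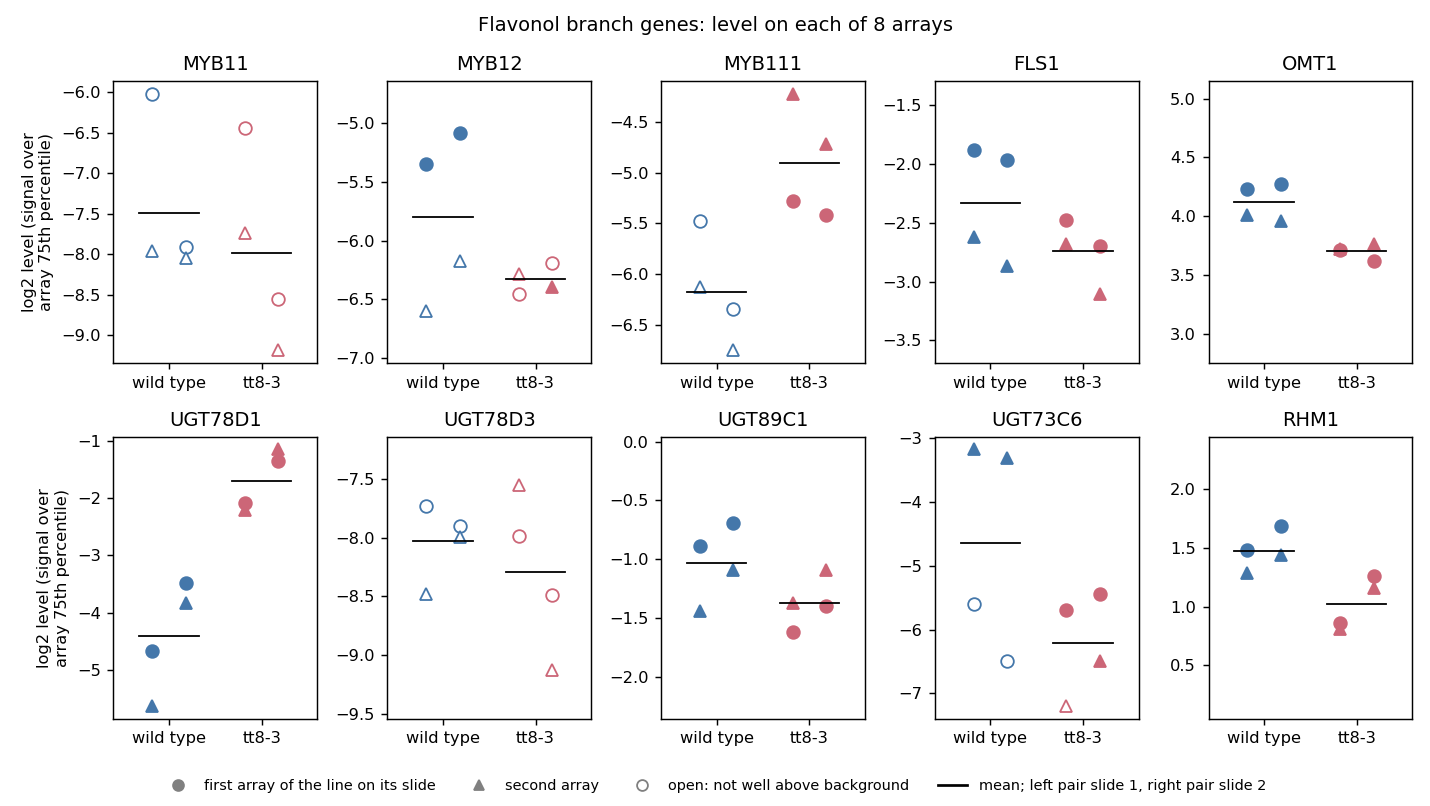
Level of each of the 10 loci on each of the 8 arrays, as log2 signal over the 75th percentile of the array, by line. Circles are first arrays and triangles second arrays of a line on its slide, open symbols are not well above background, the left pair is slide 1, the right pair slide 2, and lines are means. The arrays of the lines separate for MYB111, UGT78D1, OMT1 and RHM1 and overlap for the other 6 loci, and in UGT73C6 the second wild-type arrays stand apart.

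Among the regulators, MYB111 (AT5G49330), which activates flavonol genes mainly in aerial parts of seedlings, was at -5.47, -6.12, -6.34 and -6.75 on wild-type replicates 1 to 4. On tt8-3 replicates 1 to 4 it was at -5.28, -4.23, -5.41 and -4.72. Every tt8-3 array lay above every wild-type array, by 0.06 on the log2 scale at the nearest pair, and no wild-type array was well above background. The mean level of the slide averages was -6.17 ± 0.53 in wild type and -4.91 ± 0.22 in the mutant (SD, n = 2). In the main values MYB111 was thus at least 1.92-fold higher in tt8-3, with a measured log2 change of 1.26 ± 0.29 (SE, limma adjusted p = 0.045). It entered the test only through tt8-3, so these values and the calls below are given as a description. The difference was 1.04 on slide 1 and 1.47 on slide 2, and it was 0.56 between first arrays and 1.96 between second arrays. When arrays were averaged by order the call was lost (limma adjusted p = 0.14), and with the slide as a block it held (limma adjusted p = 0.00487). It was also lost without wild-type replicate 2 or 3, without tt8-3 replicate 1, 2 or 4, without the wild-type average of slide 2 and without the tt8-3 average of slide 1, at adjusted p-values of 0.0544 to 0.102. With normexp background correction that left out spots of flagged background, an alternative chosen after seeing the data, the change was 0.13 (limma adjusted p = 0.68). The call was also lost with normexp of all spots, at 0.79, with quantile normalization, at 1.05, with median scaling, at 1.16, and without the filter on dim probes (limma adjusted p = 0.30, 0.0833, 0.0609 and 0.0971).

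MYB12 (AT2G47460), the flavonol regulator best known from roots, was at -5.35, -6.60, -5.09 and -6.18 on wild-type replicates 1 to 4. Its level on tt8-3 replicates 1 to 4 was -6.45, -6.28, -6.19 and -6.40. The first wild-type arrays were the highest of the 8. The second wild-type arrays lay on either side of the tt8-3 arrays, at -6.60 below all of them and at -6.18 just above. Only wild-type replicates 1 and 3 and tt8-3 replicate 4 were well above background, so MYB12 was not tested. MYB11 (AT3G62610), which acts beside both, did not exceed background clearly on any of the 8 arrays. Its values ran from -8.05 to -6.02 in wild type and from -9.19 to -6.45 in tt8-3, with the highest wild-type value on replicate 1, and no difference was detectable at this signal.

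FLS1 (AT5G08640) encodes the main flavonol synthase of Arabidopsis. Its level was -1.88, -2.62, -1.96 and -2.87 on wild-type replicates 1 to 4 and -2.47, -2.68, -2.70 and -3.10 on tt8-3 replicates 1 to 4. First wild-type arrays were above all others, while the second wild-type arrays lay within the range of the mutant. Over slide averages the mean was -2.33 ± 0.12 for wild type and -2.74 ± 0.23 for tt8-3 (SD, n = 2), a log2 change of -0.40 ± 0.15 (SE) that did not pass (limma adjusted p = 0.12). Averaged by array order it did not pass either (limma adjusted p = 0.49), and with the slide as a block it did (limma adjusted p = 0.0116). Against the first wild-type arrays alone FLS1 was lower in tt8-3 by a log2 change of -0.81 (limma adjusted p = 0.0187). Against the second alone the change was 0.01 (limma adjusted p = 0.98). These comparisons by wild-type array were chosen after seeing the data and share the same tt8-3 arrays. The size of the FLS1 change and its call differed between them, and with all arrays kept the call also depended on how the slide was treated.

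OMT1 (AT5G54160), a methyltransferase of phenylpropanoid precursors that also methylates quercetin to isorhamnetin, was read by 4 probes. At the brightest probe its level was 4.23, 4.01, 4.28 and 3.96 on wild-type replicates 1 to 4 and 3.71, 3.72, 3.62 and 3.76 on tt8-3 replicates 1 to 4. All tt8-3 arrays lay below all wild-type arrays. Over slide averages the mean was 4.12 ± 0.0005 for wild type and 3.71 ± 0.018 for tt8-3 (SD, n = 2). OMT1 fell by 0.41 ± 0.082 on the log2 scale (SE, limma adjusted p = 0.0328), which is 1.33-fold. The slide averages of wild type nearly coincide because the first array was higher than the second by 0.22 on slide 1 and by 0.32 on slide 2. The other 3 probes changed by -0.38, -0.45 and -0.37, with adjusted p-values of 0.0468, 0.0374 and 0.14 in a limma fit over probes. The arrays did not overlap at the former pair and did overlap at the third. Averaged by array order, OMT1 did not pass (limma adjusted p = 0.24), and with the slide as a block it did (limma adjusted p = 0.00553). The call held without tt8-3 replicate 2 or 4 and was lost in the other 10 of 12 fits that left out an array or a slide average, with changes of -0.49 to -0.33 and adjusted p-values of 0.0573 to 0.22. It was also lost with quantile normalization, at a change of -0.27, and with normexp of all spots, at -0.48 (limma adjusted p = 0.095 and 0.26). Normexp without spots of flagged background, the fit without the filter on dim probes and the second wild-type arrays alone gave no call either (limma adjusted p = 0.0726, 0.0835 and 0.0939). Of 13 alternatives that left out no single array or slide average, the 2 averagings of wild-type arrays included, 7 called OMT1.

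Of the glycosyltransferases, UGT78D1 (AT1G30530), which adds rhamnose to the flavonol hydroxyl that usually receives the first sugar, differed most. Its processed signal, before scaling, was 21.3, 16.2, 70.3 and 68.6 on wild-type replicates 1 to 4 and 188, 163, 389 and 501 on tt8-3 replicates 1 to 4. The levels were -4.68, -5.63, -3.48 and -3.84 in wild type and -2.09, -2.20, -1.35 and -1.15 in tt8-3, in the same order. All 8 arrays were well above background and no tt8-3 array reached down to the wild-type range, while slide 2 was higher than slide 1 in both lines. Over slide averages the mean was -4.41 ± 1.06 for wild type and -1.70 ± 0.63 for tt8-3 (SD, n = 2). UGT78D1 rose by 2.71 ± 0.61 on the log2 scale (SE, limma adjusted p = 0.0423), or 6.54-fold, which is the 183rd highest change among the 19226 genes. The difference was 3.01 on slide 1 and 2.41 on slide 2. The rise passed with arrays averaged by order (limma adjusted p = 0.0184), with the slide as a block (limma adjusted p = 0.00251), and in each of the 12 fits that left out an array or a slide average, with changes of 1.96 to 3.46. It was 1.57 and did not pass with normexp background correction of all spots (limma adjusted p = 0.13). With spots of flagged background left out it was 1.40 and passed (limma adjusted p = 0.0186). Without the filter on dim probes the rise of 2.71 did not pass (limma adjusted p = 0.0923).

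UGT78D3 (AT5G17030), which transfers arabinose to flavonols, likewise stayed near background throughout. Its levels ran from -8.48 to -7.73 in wild type and from -9.13 to -7.55 in tt8-3, so a difference was not detectable. UGT89C1 (AT1G06000), which adds rhamnose at another hydroxyl of flavonols that already carry a sugar, has 2 probes. The brighter was at -0.89, -1.44, -0.69 and -1.09 on wild-type replicates 1 to 4 and at -1.62, -1.37, -1.40 and -1.09 on tt8-3 replicates 1 to 4. Those ranges overlap. The log2 change of -0.34 ± 0.15 (SE) did not pass by slide averages or by array order (limma adjusted p = 0.17 and 0.43), and passed with the slide as a block (limma adjusted p = 0.00797). The dimmer probe changed by -0.41 (adjusted p = 0.089 in the limma fit over probes), and the median of both probes by -0.37 (limma adjusted p = 0.0378).

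UGT73C6 (AT2G36790), a glucosyltransferase that acts on flavonol glycosides and also on brassinosteroids, showed a different order of arrays in each line. Its level was -5.60, -3.18, -6.50 and -3.31 on wild-type replicates 1 to 4, and -5.69, -7.19, -5.44 and -6.49 on tt8-3 replicates 1 to 4. The second wild-type arrays were well above background and far above the other 6, while the first wild-type arrays, not well above background, lay among those of tt8-3. UGT73C6 was not tested, because neither line was well above background on 4 arrays. Between first arrays the difference was 0.48, and between second arrays it was -3.59.

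RHM1 (AT1G78570), which makes the UDP-rhamnose that rhamnosyltransferases use, was read by 3 probes. The brightest was at 1.48, 1.29, 1.69 and 1.44 on wild-type replicates 1 to 4 and at 0.86, 0.81, 1.26 and 1.16 on tt8-3 replicates 1 to 4. The lines did not overlap there, by a margin of 0.02 on the log2 scale. Its change of -0.45 ± 0.17 (SE) did not pass by slide averages or by array order (limma adjusted p = 0.12 and 0.20), and passed with the slide as a block (limma adjusted p = 0.0118). Leaving out the tt8-3 average of slide 2 gave -0.64 and a call (limma adjusted p = 0.0493). The remaining probes changed by -0.17 and -0.30, with overlapping arrays and adjusted p-values of 0.48 and 0.40 in the limma fit over probes, and the median over the 3 probes changed by -0.17 (limma adjusted p = 0.46).

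**Figure D2:**
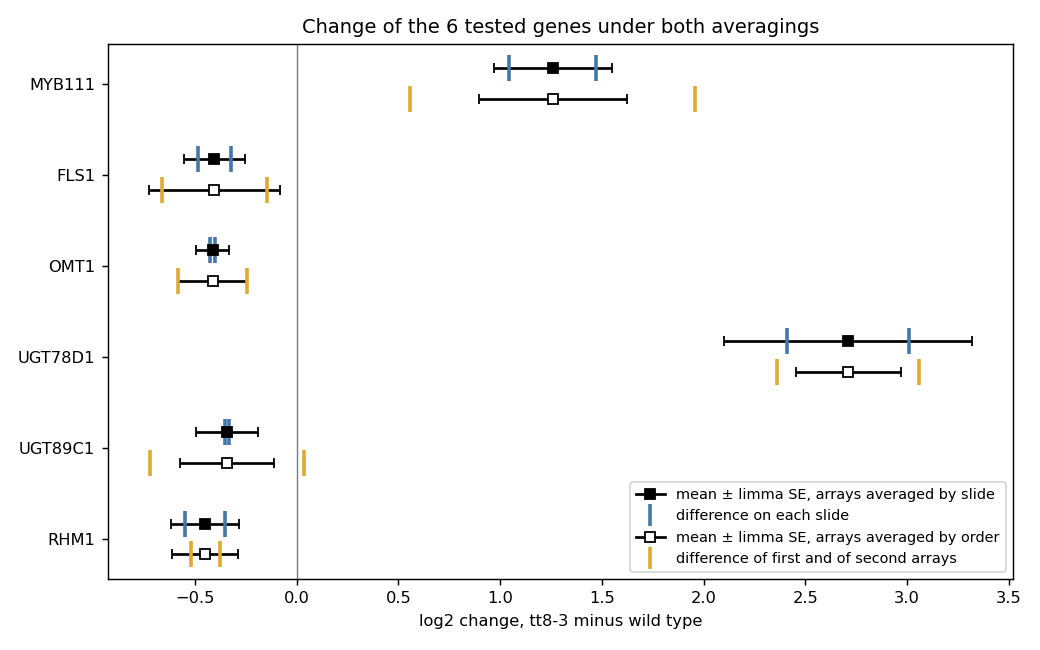
Log2 change, tt8-3 minus wild type, of the 6 tested loci. Squares with bars are the mean and the limma standard error when arrays are averaged by slide (filled) or by order (open), and ticks are the differences on each slide (blue) and of first and second arrays (yellow). UGT78D1 is at 2.71 and MYB111 at 1.26, the other 4 loci lie between -0.45 and -0.34, and for all of them but RHM1 the ticks of the array order lie further apart than those of the slides.

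Counted over the tested loci, slide averages called 2 higher and 1 lower of 6, with a median log2 change of -0.37 beside 0.01 for all genes tested. Averaged by array order, 1 of 6 was called higher and 0 lower by limma, with 2 higher and 1 lower at an unadjusted p under 0.05. In that fit 2.74% of all genes were called higher and 0.38% lower, and 15% were higher and 8.44% lower at an unadjusted p under 0.05. By slide averages those unadjusted shares were 23.6% and 18.8%, against which the unadjusted counts of the lists below are to be read. With the slide as a block, 2 of 6 were called higher and 4 lower, where 33.8% of all genes were called higher and 30.7% lower. The tt8-3 arrays lay wholly above the wild-type arrays for 2 of the 6 loci and wholly below for 2, beside 19.7% and 13.5% of all genes. These fits use the same arrays and the same log2 changes and differ in the spread they count as error.

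**Figure D3:**
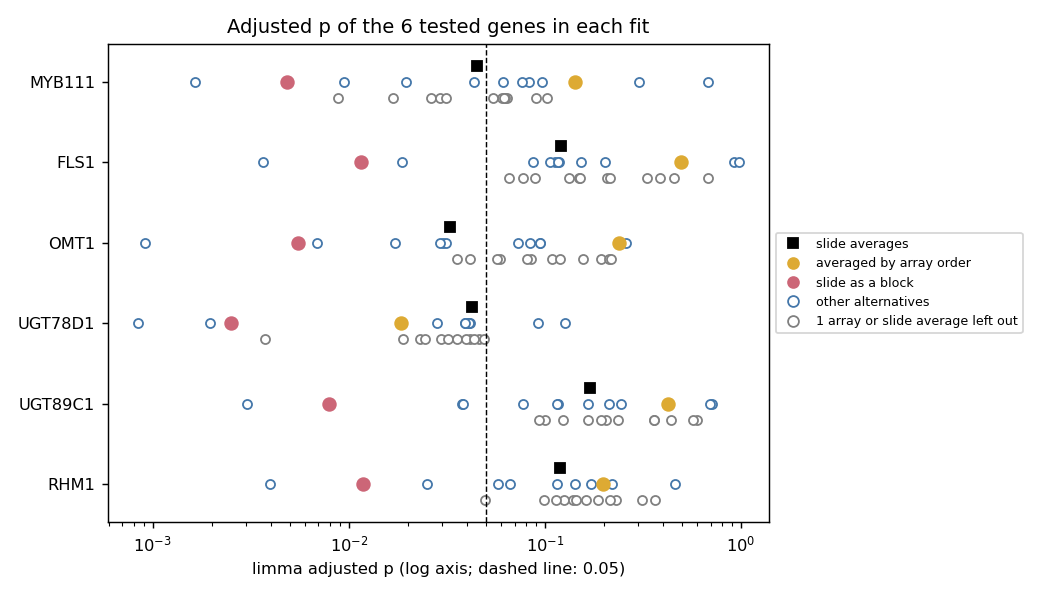
Limma adjusted p of the 6 tested loci, on a log axis with a dashed line at 0.05, for slide averages (black squares), averaging by array order (yellow), the slide as a block (red), other alternatives (blue) and fits with 1 array or slide average left out (grey). The grey points of UGT78D1 all lie below 0.05, those of MYB111, OMT1 and RHM1 fall on both sides, and those of FLS1 and UGT89C1 all lie above.

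Differences between the first and second arrays of a line recurred across slides more in wild type than in tt8-3. Over all genes tested the first-minus-second differences of the slides correlated at 0.88 in wild type and at 0.67 in tt8-3. The median absolute difference in wild type was 0.32 between arrays of one slide and 0.15 between arrays of the same order, and in tt8-3 it was 0.13 and 0.17. In wild type the first array exceeded the second on both slides for all loci but UGT73C6. The mean excess was 1.17 for MYB12, 0.82 for FLS1, 0.65 for UGT78D1, 0.53 for MYB111 and 0.48 for UGT89C1. UGT73C6 ran the other way, at -2.80 in wild type and 1.27 in tt8-3. In tt8-3 the difference changed sign between slides for UGT78D1, at 0.11 and -0.20, for MYB12, at -0.17 and 0.21, and for UGT78D3, at -0.44 and 0.64. What separates first from second arrays is not stated in the sources used here, and its part in these changes was not tested.

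**Figure D4:**
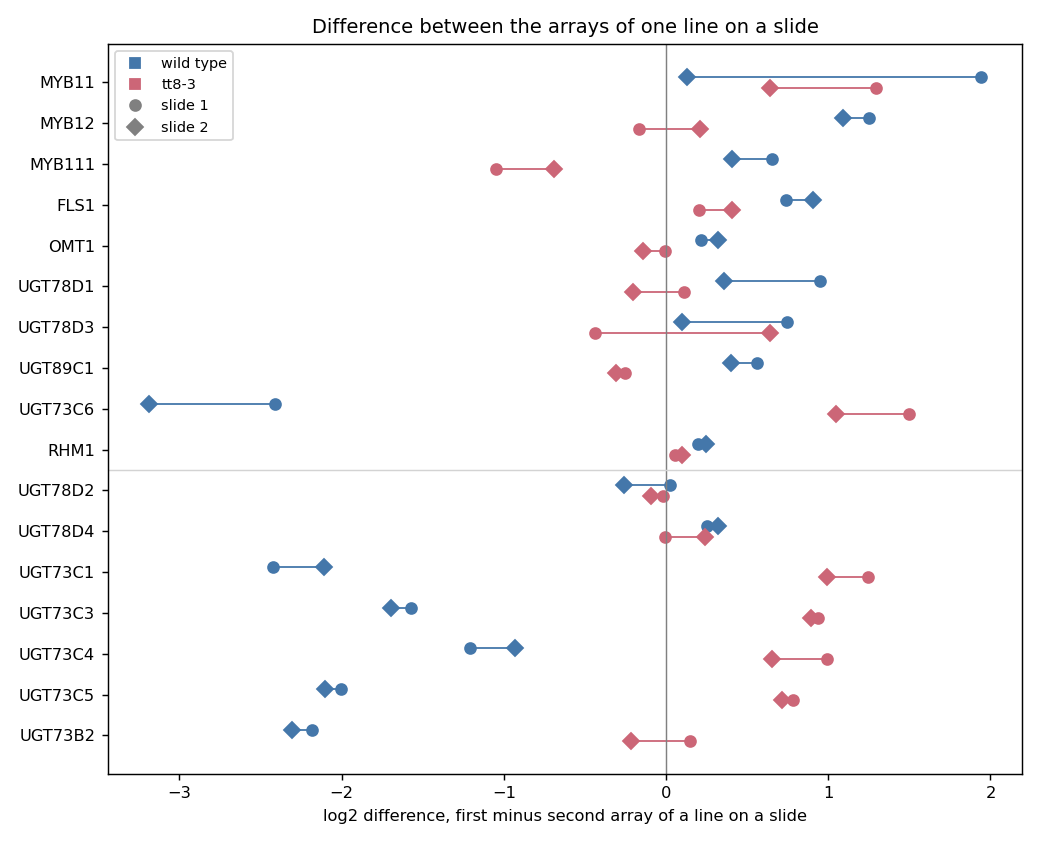
First minus second array of a line on a slide, on the log2 scale, for the 10 loci and, under the grey line, related glycosyltransferases; blue is wild type, red tt8-3, circles slide 1 and diamonds slide 2. UGT73C1, UGT73C3, UGT73C4, UGT73C5 and UGT73C6 are negative in wild type and positive in tt8-3 on both slides, and UGT73B2 is negative in wild type.

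Relatives of the glycosyltransferases were read from a list of 7, of which 6 were tested, and 0 were called higher and 3 lower by limma, with no member higher at an unadjusted p under 0.05. UGT78D2 (AT5G17050), which adds glucose to flavonols and anthocyanidins, was at -0.24, -0.26, -0.55 and -0.29 on wild-type replicates 1 to 4. On tt8-3 replicates 1 to 4 it was at -0.81, -0.79, -1.01 and -0.92, below every wild-type array. UGT78D2 fell by 0.55 ± 0.12 on the log2 scale (SE, limma adjusted p = 0.0372). The fall did not pass by array order (limma adjusted p = 0.13), was called in 3 of the 12 fits with an array or slide average left out, and was between -0.63 and -0.46 in them. By slide averages UGT78D1 thus rose and UGT78D2, which places another sugar on flavonols, fell, and of this pair UGT78D1 passed under both averagings.

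The UGT73C relatives lie beside UGT73C6 in locus number and are close in sequence to it, and how far their probes read each other's transcripts was not examined. UGT73C5 (AT2G36800), which inactivates brassinosteroids, was at 0.88, 2.88, 0.73 and 2.83 on wild-type replicates 1 to 4 and at 1.47, 0.69, 1.38 and 0.66 on tt8-3 replicates 1 to 4. Its second wild-type arrays were the highest and its first wild-type arrays lay within the range of tt8-3, as for UGT73C6. By slide averages UGT73C5 fell by 0.78 and UGT73C1 (AT2G36750) by 1.05 (limma adjusted p = 0.0116 and 0.0226). Neither passed by array order (limma adjusted p = 0.56 and 0.50), where first arrays differed by 0.62 and 0.64 and second arrays by -2.18 and -2.75. Without wild-type replicate 2 or 4 the change of UGT73C5 was -0.28 or -0.26 and that of UGT73C1 -0.45 or -0.53, with no call. Without wild-type replicate 1 or 3 that of UGT73C5 was -1.28 or -1.31. Against the first wild-type arrays alone UGT73C5 changed by 0.24 and UGT73C1 by 0.08, and against the second alone by -1.81 and -2.19. UGT73C3 (AT2G36780) and UGT73C4 (AT2G36770), at -0.40 and -0.24, did not pass (limma adjusted p = 0.13 and 0.14) and showed the same order of arrays, with first minus second at -1.64 and -1.07 in wild type and at 0.92 and 0.82 in tt8-3. A dimmer UGT73C3 probe, well above background on all 8 arrays, went the other way, at 0.33 (adjusted p = 0.18 in the limma fit over probes), and the median over probes changed by -0.03. UGT78D4 (AT5G17040) changed by -0.75 (limma adjusted p = 0.39).

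UGT73B2 (AT4G34135), a flavonol glucosyltransferase of the same family, followed this order in wild type, at -2.73, -0.54, -2.97 and -0.66 on replicates 1 to 4. In tt8-3 it was at -2.27, -2.42, -2.62 and -2.40, with no such alternation. It fell by 0.70 by slide averages (limma adjusted p = 0.0231), which array order did not call (limma adjusted p = 0.61). Without wild-type replicate 2 or 4 its change was -0.15 or -0.12. It stood in a list of 4 further flavonol glycoside enzymes, of which BGLU6 (AT1G60270) has no named probe and 2 were tested, 0 higher and 1 lower by limma. BGLU15 (AT2G44450), a glucosidase that acts on flavonol bisglycosides, was the other, with a change of 0.48 (limma adjusted p = 0.0694), higher at an unadjusted p under 0.05.

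Of 3 further enzymes of UDP-rhamnose synthesis, 0 were called in either direction by limma, and 1 was lower at an unadjusted p under 0.05. RHM2 (AT1G53500) and RHM3 (AT3G14790), which catalyse the same reaction as RHM1, changed by 0.07 and 0.05, and UER1 (AT1G63000), which completes the sugar conversion, changed by -0.50 (limma adjusted p = 0.0576). A dimmer UER1 probe changed by -0.96, with every tt8-3 array below every wild-type array (adjusted p = 0.0155 in the limma fit over probes), and the median over probes by -0.73 (limma adjusted p = 0.0102). The list of 5 sequence relatives of FLS1 had 3 tested genes, 0 higher and 1 lower by limma. FLS4 (AT5G63595) was at -1.39, -2.47, -1.44 and -2.23 on wild-type replicates 1 to 4 and at -2.94, -2.47, -2.73 and -2.67 on tt8-3 replicates 1 to 4. Its first wild-type arrays were high, as in FLS1. FLS4 fell by 0.82 by slide averages (limma adjusted p = 0.0103). Array order gave no call (limma adjusted p = 0.25), nor did the fits without wild-type replicate 1, without wild-type replicate 3 or without the wild-type average of slide 2, with adjusted p-values of 0.0537 to 0.18. FLS3 (AT5G63590) and FLS5 (AT5G63600) changed by -0.16 and -0.0009.

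Upstream of FLS1, 6 early flavonoid enzymes were all tested, and 0 were called higher and 1 lower by limma, with 1 higher and 3 lower at an unadjusted p under 0.05. 4CL3 (AT1G65060), a coenzyme A ligase of the flavonoid route, fell by 0.39 (limma adjusted p = 0.0467). That call was kept in 1 of the 12 fits with an array or slide average left out, the one without tt8-3 replicate 2, and was lost by array order (limma adjusted p = 0.48). CHS (AT5G13930) and CHI (AT3G55120), the entry enzymes, changed by 0.20 and 0.10, and F3H (AT3G51240), which supplies the dihydroflavonol, by -0.35 (limma adjusted p = 0.32, 0.82 and 0.11). F3H and 4CL3 have 2 probes each. The median over probes changed by -0.46 for F3H, which passed, and by -0.51 for 4CL3, which did not (limma adjusted p = 0.0237 and 0.36). For 4CL3 and F3H, as for FLS1, the change was near 0 against the second wild-type arrays alone, at 0.01 for each, and -0.79 and -0.71 against the first alone. Of 3 later enzymes of anthocyanins and proanthocyanidins DFR (AT5G42800) alone was tested, at 0.31 (limma adjusted p = 0.47). LDOX was well above background on 1 array of each line and ANR on 0.

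Among 7 further regulators of flavonol and light responses, 3 were tested and 1 was called higher and 0 lower by limma, with no member lower at an unadjusted p under 0.05. HY5 (AT5G11260), a bZIP factor of light signalling that is known to act upstream of MYB12 and MYB111, was at -3.65, -4.02, -3.46 and -3.39 on wild-type replicates 1 to 4. On tt8-3 replicates 1 to 4 it was at -2.82, -2.66, -2.40 and -2.62. The lines did not overlap. HY5 rose by 1.01 ± 0.18 on the log2 scale (SE, limma adjusted p = 0.0264), with an adjusted p of 0.0507 in the limma fit by array order. The call was lost with normexp of all spots, at 0.87, and without the filter on dim probes (limma adjusted p = 0.22 and 0.0659). With normexp without spots of flagged background HY5 changed by 0.55 and passed (limma adjusted p = 0.034). It was called in 11 of the 12 fits with an array or slide average left out, and lost without the wild-type average of slide 1, at 0.80 (limma adjusted p = 0.058). Over these 35 context genes, 24 were tested, 1 was higher and 6 were lower, with a median of -0.28. Averaged by array order, limma called 0 of the 24 in either direction, with 1 higher and 3 lower at an unadjusted p under 0.05.

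The genes most like FLS1 over the 8 arrays, by the root mean square difference of levels after centring each gene on its mean, were AGP21 (AT1G55330) at 0.0554, AT1G70820 at 0.064 and AT1G12250 at 0.071, beside a root mean square of 0.394 for FLS1 itself. Their changes were -0.35, -0.35 and -0.33. Those most like UGT78D1 were AT3G23175 at 0.342, AT3G09162 at 0.383 and AT3G52680 at 0.404, beside 1.51 for UGT78D1. They changed by 2.56, 2.57 and 2.36, and changes near that of UGT78D1 follow from choosing them by likeness over the same arrays. The 8 arrays share the scaling and the alternation described above, so likeness describes these arrays.

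Tissue markers were read on the same arrays. The 5 shoot and photosynthesis markers and the 5 root markers were all well above background on all 8 arrays. The summed scaled signal of the shoot list, as a multiple of the 75th percentile, was 858 to 1967 in wild type and 791 to 1473 in tt8-3, with 0 of 5 genes called by limma or at an unadjusted p under 0.05. With the slide as a block all 5 were called lower, at changes of -0.44 to -0.29 (limma adjusted p of 0.0121 to 0.0384), a size close to the changes of FLS1, UGT89C1, RHM1 and OMT1. In that fit 33.8% of all genes were called higher and 30.7% lower, and of the 5 root markers 1 was called higher and 4 lower. The part of shoot tissue in the changes of FLS1, UGT89C1, RHM1 and OMT1 was not tested. Summed over the root list it was 25.0 to 46.8 in wild type and 37.1 to 49.4 in tt8-3, with PYK10 called higher, at 0.71, and NRT2.1 and PHT1;1 lower, at -2.05 and -0.64 (limma adjusted p = 0.0209, 0.00315 and 0.0302). By array order PYK10 and PHT1;1 did not pass (limma adjusted p = 0.30 and 0.21), NRT2.1 did (limma adjusted p = 0.0279), and IRT1, at -1.71 and not called by slide averages (limma adjusted p = 0.25), was lower (limma adjusted p = 0.0292). PYK10 changed by 0.24 against the first wild-type arrays alone and by 1.19 against the second alone. For the 8 seed storage markers it was 0.0477 to 0.0663 in wild type and 0.0954 to 0.343 in tt8-3, above wild type on every tt8-3 array. Of these 8, CRA1 and OLEO2 entered the test, only through tt8-3, the line in which they are high, and they are given as a description, at least 2.51-fold and at least 4.40-fold (limma adjusted p = 0.000867 and 0.00749). Neither passed by array order (limma adjusted p = 0.11 and 0.16). No seed marker was well above background on all 8 arrays, and the list did not move one way. CRU3, OLEO1 and SESA2 differed by 1.59, 1.17 and 0.30, while SESA3, CRU2 and SESA1, dim on all arrays at their brightest probe, differed by -1.22, -1.14 and -0.57. In the limma fit without the filter on dim probes CRU3 was called higher and SESA3 lower (limma adjusted p = 0.0372 and 0.0465). UGT78D1, MYB111 and HY5 were, like CRA1, CRU3 and OLEO2, higher on every tt8-3 array than on any wild-type array. That separation was found for 19.7% of all genes tested, and SESA3, CRU2 and SESA1 differed in the other direction. The part of seed tissue in the rise of UGT78D1, MYB111 and HY5 was not tested.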

How the data were processed

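Total RNA of tt8-3 and wild-type seedlings was read on 8 one-colour arrays. The authors deposited spot intensities from Agilent Feature Extraction 10.7.1.1, as the submitters' processing notes and the file headers state: a background-subtracted, detrended processed signal, median spot and background signals, and flags. They also deposited a log2 value table, whose steps are not given in the sources used here. Set against the scanner files, it matched the scaled values below centred per probe on the slide's median (correlation at least 0.9999), with array medians of -0.0607 to 0.113.

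Main values were log2 processed signal minus the array's 75th percentile (a signal of 545 to 1108), without controls and without 4 to 23 flagged spots per array. The share of probes well above background was 69.0% to 71.7% in wild type and 70.9% to 77.2% in tt8-3. No spot was saturated, and arrays shared at most 2.28e-05 of their values. Transcript accessions and the RefSeq gene table (TAIR10.1) named 34358 of 43603 probes. Of 25433 genes, 6940 had several probes, and the brightest was used. UGT89C1, UGT78D4, UGT73C3 and UGT73C4 have no symbol there and are named by locus.

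Slide averages, 2 against 2, were fitted in limma 3.58.1 (lmFit, eBayes; R 4.3.3), with p-values adjusted by Benjamini-Hochberg across the 19226 tested genes and called under 0.05. The limma fit was tried on simulated slide averages with independent noise, without an effect of slide or array order, and the averaging on known values. Background correction, the filter on dim probes and probe naming were not simulated. Both lines lie on both slides and their slide differences correlate at 0.78 over genes, so the slide pairs the averages. The main fit has no term for the slide and counts that difference as error, and the fit with the slide as a block removes it. Alternatives were averaging by array order, the slide as a block or random block, normexp (offset 50), quantile and median scaling, the dim-probe filter, the probe rule, the deposited table and each array or slide average left out; normexp without spots of flagged background and each set of wild-type arrays alone were chosen after seeing the data. The loci, gene lists and rule for named genes were chosen with earlier results of these data known. The rule names TT8, the 10 loci with every probe, called members of the lists, sequence relatives of the loci, and the 3 genes most like FLS1 and UGT78D1; CHS, CHI, F3H, DFR, LDOX, ANR, BGLU15, UER1, RHM2 and RHM3 were named after their values were seen. No sequence or genome was used here.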

Additional observations from a re-analysis of the deposited data

Results flagged for a closer look

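One array stood far from the others of its line. MYB11 was at -6.02 on wild-type replicate 1, and at -8.05 to -7.92 on the other 3 wild-type arrays, so the gap was 0.936 of the range, above Dixon's critical value for 4 samples. MYB11 was below the detection flag on all 8 arrays. Levels of the 10 loci and TT8 gave 22 groups of 4 arrays to test, and chance flags about 1 group in 20.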

How the results depend on the processing

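The number of genes changed between tt8-3 and wild type was 5133 by slide averages, 3 among the flavonol loci and 7 among the context genes. In the same order it was 599, 1 and 0 with averaging by array order, 12394, 6 and 17 with the replicate block (slide), 104, 0 and 0 with normexp background correction, 2406, 0 and 2 without the filter on dim probes, and 13890, 6 and 18 with the deposited value table, whose centring by slide removes the slide difference without counting it. At an unadjusted p under 0.05, array order gave 3 flavonol and 4 context genes, normexp 2 and 5, and the unfiltered fit 5 flavonol genes. Of all genes, 15% were higher and 8.44% lower at that cut by array order, 12.9% and 7.77% with normexp, and 16.6% and 14% in the unfiltered fit. Normexp without spots of flagged background gave 3401 genes and 1 flavonol locus, and quantile normalization left 1 flavonol locus. With 1 array or slide average left out the counts were 2067 to 5037, 1 to 3 and 1 to 9. All 4 wild-type arrays lowered the first count by over 1.5 times when left out singly, to 2282 to 2958, and so did either wild-type slide average, at 2067 and 2071. The FLS1 change was near 0 with normexp, at 0.0523, and with the second wild-type arrays alone, at 0.0067 (limma adjusted p = 0.92 and 0.98). With normexp without spots of flagged background it was -0.42 (limma adjusted p = 0.0869). The cause of these shifts was not tested. On 1 array, tt8-3 replicate 4, the lowest spot signal minus background was -32257, against 3 to 12 on the other arrays. Median scaling called 2155 genes higher and 2636 lower, against 3027 and 2106, and moved the median change of all genes from 0.01 to -0.09, while normexp moved it to 0.12; relative to that, the median-scaled changes of the loci match the main ones, but MYB111 lost its call. UGT78D1 kept its direction in every fit run and its call in all but normexp of all spots and the unfiltered fit. The block changed the calls of FLS1, UGT89C1 and RHM1 of 10 context genes and of all 5 shoot markers, and no other call among the flavonol loci. Low signal limits MYB11, MYB12, UGT78D3, UGT73C6 and the wild-type level of MYB111, and the small number of arrays limits every test.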
